A study of Mus musculus with 10 samples.

Results

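The genes described here encode the enzymes of cholesterol and fatty acid synthesis and the proteins that switch them on, and they were followed in mouse morulae with and without Jarid2. Members are the rows of the count table named for 31 chosen genes, and all 31 were found among its 35976 rows. Jarid2 encodes a cofactor of the Polycomb complex PRC2, and the series asks what its loss changes in the embryo's RNA. One set of libraries held 1 female embryo each, with 3 wild-type embryos (replicates 1 to 3) and 3 Jarid2 knockout embryos (replicates 1, 3 and 4). The other set held pools of about 20 embryos, with 2 control pools and 2 Jarid2 knockout pools whose sex the labels do not state. All embryos were at the morula stage and came from BDF1 x PWK. How the knockout was made, and whether knockout embryos also lacked maternal Jarid2, is not stated either.

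Cholesterol is built from acetyl units. The mevalonate arm, made mostly of soluble enzymes, yields farnesyl diphosphate. Membrane-bound enzymes of the endoplasmic reticulum then turn it into squalene, lanosterol and finally cholesterol. Fatty acids start from the same acetyl units, through acetyl-CoA carboxylase and fatty acid synthase, and are then elongated and desaturated in the same membrane. Both routes are controlled by the SREBP transcription factors (Srebf1, Srebf2), which sit in that membrane bound to the escort protein Scap. When sterols are plentiful the Insig proteins hold the complex back, and when they are scarce it leaves for the Golgi, where proteases release the active factor. Each cleavage division of the early embryo adds new membrane between daughter cells, for which these lipids are building blocks.

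The SREBP factors bind a sterol regulatory element in promoters, often beside sites of the factors NF-Y and Sp1. Promoter windows from RefSeq (GRCm38.p6, 250 bases before to 50 after each start) matched 24 members; Fdps, Fdft1, Sqle, Scd1, Scd2, Fads1 and Stard4 had no entry. Of the members whose call in single embryos is reported below, 4 had a window. Their upstream stretches are printed with those of Hmgcs1 and Idi1, 2 enzymes of the soluble arm, as examples. Each stretch is 80 bases long, reads 5′ to 3′ on the gene's strand and lies upstream of a start site. A stretch that holds the sterol element was taken first, then the one with the most matches, then the nearest to the start; Dhcr7 has 3 start sites, of which 1 is shown. Capitals mark the motifs TCACNCCAC (core of the sterol regulatory element), CCAAT (NF-Y), GGGCGG (Sp1) and CACGTG (E-box), searched on both strands.
Cyp51 (chr5:4104698-4104777, minus strand): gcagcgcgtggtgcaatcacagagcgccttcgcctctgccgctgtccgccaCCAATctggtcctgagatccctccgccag
Ebp (chrX:8193513-8193592, minus strand): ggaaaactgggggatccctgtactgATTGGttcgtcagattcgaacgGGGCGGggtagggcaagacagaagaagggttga
Dhcr7 (chr7:143830129-143830208, plus strand): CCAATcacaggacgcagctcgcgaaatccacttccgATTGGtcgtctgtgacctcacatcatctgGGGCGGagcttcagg
Elovl6 (chr3:129532306-129532385, plus strand): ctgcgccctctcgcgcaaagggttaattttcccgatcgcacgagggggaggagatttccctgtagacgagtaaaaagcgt
Hmgcs1 (chr13:119690214-119690293, plus strand): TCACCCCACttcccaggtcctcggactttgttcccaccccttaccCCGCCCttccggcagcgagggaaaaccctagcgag
Idi1 (chr13:8885526-8885605, plus strand): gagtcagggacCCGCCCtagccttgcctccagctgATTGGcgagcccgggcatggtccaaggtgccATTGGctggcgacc

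Hmgcs1 alone of the 24 held the sterol element core (4.17%, against 1.47% of the 10254 genes with a window that were tested in single embryos). The CCAAT box was found in 19 of the 24 members (79.17%, against 43.4% of tested genes), the Sp1 box in 20 (83.33%, against 65.3%) and the E-box in 5 (20.83%, against 11.8%). A gene was counted if any of its windows held the motif. Members of the soluble and of the membrane-bound arm both carried CCAAT boxes, and Elovl6 held none of these motifs in its window. The window of Hmgcs1 holds 4 CCAAT boxes and that of Cyp51 holds 1 Sp1 box, all outside the printed stretches. A match of letters is a description of these windows, not a binding site.

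A single-embryo library held 14830332 to 18696312 counts in all, and a pool held 41003216 to 49861963. Jarid2 was at 580, 686 and 776 CPM (counts scaled to a library's total) in wild-type embryos and at 156, 319 and 61.3 CPM in knockout replicates 1, 3 and 4. In pools it was at 442 and 496 CPM in controls and at 181 and 158 CPM in knockouts, so knockout replicate 3 had more Jarid2 than the other knockout libraries of both sets. Of the 7 trophectoderm-side and 7 pluripotency markers of the morula, at least 6 of each exceeded 10 CPM in every library of each group. Trophectoderm-side markers summed to 2000 to 2094 CPM in wild-type and 1207 to 2422 CPM in knockout single embryos, pluripotency markers to 1585 to 1790 CPM and 1418 to 1892 CPM. Some single markers of knockout replicate 1 lay outside the wild-type range, on either side. Sox2 was at 57.38, 63.65 and 71.02 CPM in wild types and at 6.22, 62.31 and 42.5 CPM in knockout replicates 1, 3 and 4. Krt18 was at 1016, 929 and 1002 CPM against 481, 1100 and 806 CPM, and Pou5f1 at 62.3, 155 and 115 CPM against 250, 129 and 153 CPM. The part of such differences in the results was not tested. Markers chosen for other cell types were low. The 6 cumulus and granulosa markers summed to at most 0.67 CPM, the 5 blood markers to at most 8.38 CPM and the 5 oviduct markers to 0.63 to 19.63 CPM. Among single embryos the oviduct marker Krt7 reached 17.76 CPM in knockout replicate 3, and the blood marker Cd74 7.59 CPM in wild-type replicate 2. The 5 oocyte markers summed to 46.3 to 164 CPM in wild-type and 36.7 to 97.8 CPM in knockout single embryos.

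The single embryos address what differed between knockout and wild type at the same labelled stage. The pathway did not move as one block. Fdps, whose product makes farnesyl diphosphate, and Fdft1, whose product makes squalene from it, rose in knockouts. Of the enzymes that act from squalene on, Sqle, Cyp51, Ebp and Dhcr7 fell, and among fatty acid genes the elongase gene Elovl6 and the desaturase gene Scd1 fell. By edgeR at an adjusted p of 0.05, 6 of 31 members were lower (3.21% of all 13830 genes tested were) and 2 were higher (1.16% of all; 4.37% in either direction). At an unadjusted p under 0.05, 13 members were lower and 4 higher (12.2% and 10.4% of all genes), and 20 of the 31 log2 changes were below 0 (51.7% of all). The median log2 change of the 31 members was -0.53, against -0.03 for all genes tested. It was -0.22 without knockout replicate 1 and -0.32 without knockout replicate 4. The members together made up 0.699%, 0.662% and 0.729% of counts in wild-type embryos and 0.324%, 0.523% and 0.396% in knockout replicates 1, 3 and 4. Scd2, Ebp, Elovl6 and Scd1 weigh most in the wild-type share, with means of 1234, 1222, 775 and 626 CPM. Their knockout means were 424, 527, 352 and 210 CPM, so the share does not describe all members alike. In whole embryos, fewer cells of a type and less RNA per cell cannot be told apart.

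**Figure D1:**
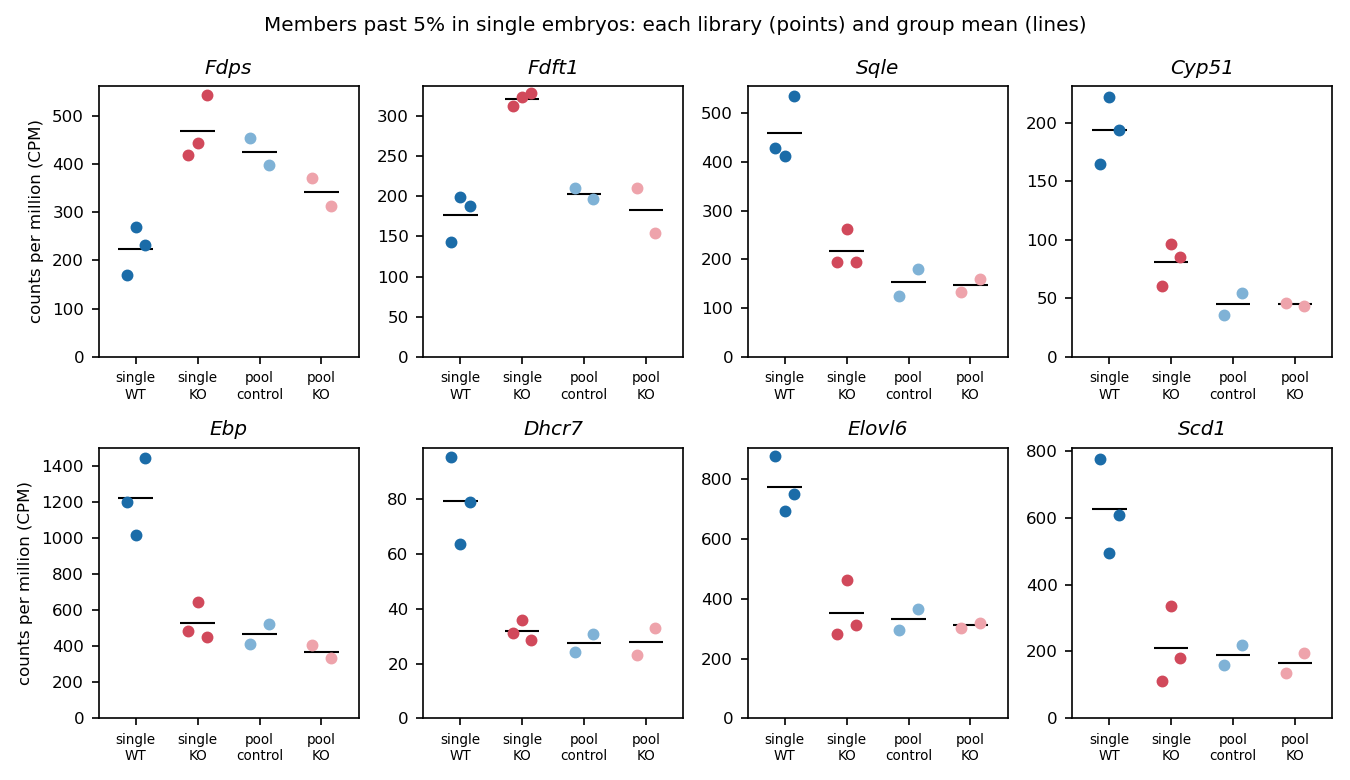
Levels in CPM of the 8 members past an adjusted p of 0.05 in single embryos, 1 panel a gene, with each library as a point and each group's mean as a line (3 wild-type and 3 knockout single embryos, 2 control and 2 knockout pools). In the 6 members that fell, each wild-type single embryo lies above each knockout single embryo and above all 4 pools, while Fdps and Fdft1 have their wild-type single embryos below the knockout ones.

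In the mevalonate arm, 1 of 7 genes rose, 0 fell and 6 did not pass (median 0.37). Fdps, the farnesyl diphosphate synthase gene (chromosome 3, 89093588 to 89101959), had 171, 270 and 232 CPM in wild types and 418, 444 and 543 CPM in knockouts. The groups did not overlap, and the knockouts lay near the control pools (454 and 398 CPM). Its log2 change was 1.11 (SE 0.21, n = 3 a group; adjusted p = 0.0229 by edgeR). Of the windows of 75 bases, the read length, in the longest coding transcript of Fdps, 80.4% also occur in other annotated genes, mostly predicted copies, so its counts are uncertain. Idi1, the isopentenyl diphosphate isomerase gene, was at 5.46, 6.16 and 3.45 CPM in wild types and at 19.3, 7.81 and 21.5 CPM in knockouts. The groups again did not overlap, with knockout replicate 3 closest to the wild types, and the log2 change of 1.77 (SE 0.50, adjusted p = 0.0702) did not pass by edgeR but did by DESeq2 (adjusted p = 0.00487). Idi1 shares 29.1% of its windows with other genes. The other 5 genes of the arm did not pass. Acat2, of acetoacetyl-CoA synthesis, had a log2 change of 0.70 (SE 0.31), Hmgcs1, of HMG-CoA synthesis, 0.09 (SE 0.21), and the mevalonate and phosphomevalonate kinase genes Mvk and Pmvk 0.34 (SE 0.45) and -0.18 (SE 0.22). Mvd, the decarboxylase gene of the arm, had 0.37 (SE 0.33). Acat2 shares 40.7% of its windows, mostly with Acat3, which had at most 2.16 CPM.

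Between farnesyl diphosphate and lanosterol, neighbouring steps went opposite ways. Fdft1, the squalene synthase gene (chromosome 14, 63145150 to 63179578), had 143, 199 and 188 CPM in wild types and 313, 324 and 328 CPM in knockouts. Knockouts varied little (322 ± 7.83 CPM, SD, n = 3) and lay above every wild type (log2 0.91, SE 0.19; adjusted p = 0.0288 by edgeR). Exons of Fdft1 overlap the cathepsin gene Ctsb, and 25.4% of the windows of Fdft1 also occur in other genes, mostly in Ctsb. Ctsb fell (-1.12, SE 0.28, adjusted p = 0.0478), opposite to Fdft1. Sqle, the squalene epoxidase gene (chromosome 15, 59315077 to 59331192), had 429, 412 and 536 CPM in wild types and 194, 262 and 194 CPM in knockouts, with no overlap. It fell by 1.05 on the log2 scale (SE 0.19, adjusted p = 0.0202). Lss, the lanosterol synthase gene that follows it, overlapped between groups (58.7 to 91.8 CPM in wild types, 38.7 to 83.3 in knockouts), with a log2 change of -0.23 (SE 0.29).

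Of the 8 genes from lanosterol to cholesterol, 3 fell, 0 rose and 5 did not pass (median -0.99). Cyp51, the lanosterol demethylase gene (chromosome 5, 4081145 to 4104746), had 165, 222 and 194 CPM in wild types and 60.8, 96.1 and 85.6 CPM in knockouts. Its log2 change was -1.22 (SE 0.22; adjusted p = 0.0188 by edgeR). Ebp, the sterol isomerase gene on the X chromosome (8185329 to 8193512), had 1203, 1015 and 1447 CPM in wild types and 485, 647 and 450 CPM in knockouts. It was the member with the highest level per exon length in wild-type single embryos, at 529 CPM per kilobase, and fell by 1.18 on the log2 scale (SE 0.19, adjusted p = 0.0179). Dhcr7, whose product carries out the last reduction to cholesterol (chromosome 7, 143823145 to 143848410), had 95.3, 63.8 and 79.0 CPM in wild types and 31.1, 35.9 and 28.7 CPM in knockouts. It fell by 1.27 (SE 0.25, adjusted p = 0.0251). In Cyp51, Ebp and Dhcr7 alike, knockout replicate 3 was the highest knockout, and in none did the groups overlap. The printed promoter stretches of all 3 hold a CCAAT box, but stretches were chosen for their motif matches. The windows of the other start sites of Dhcr7 hold 0 CCAAT boxes. Exons of Cyp51 overlap Akap9, with 2.38% of the windows of Cyp51 in common with other genes.

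The other sterol steps after lanosterol did not pass by edgeR. Tm7sf2, a sterol reductase gene, had 23.5, 9.13 and 7.02 CPM in wild types and 1.11, 4.28 and 4.32 CPM in knockouts (log2 -1.999, SE 0.65, adjusted p = 0.0994; DESeq2 0.017). Lbr, whose product also has that reductase activity and which is no member, fell (-1.37, SE 0.20, adjusted p = 0.012). Msmo1, the sterol methyl oxidase gene, had 346, 602 and 490 CPM in wild types and 302, 231 and 258 CPM in knockouts (log2 -0.80, SE 0.24, adjusted p = 0.0764; DESeq2 0.0309). In both Tm7sf2 and Msmo1 each knockout was below each wild type. The sterol desaturase gene Sc5d was also without overlap (-0.69, SE 0.29, adjusted p = 0.18). The sterol dehydrogenase gene Nsdhl, X-linked like Ebp, did overlap: it ranged from 29.1 to 110 CPM in wild types and from 48.2 to 69.4 CPM in knockouts (-0.14, SE 0.39). Hsd17b7, of the ketone reduction in the same demethylation steps, had 0.03 (SE 0.34).

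Among the 6 genes of SREBP control and sterol transfer, 0 passed by edgeR (3 at an unadjusted p under 0.05, all lower; DESeq2 called 2, limma-voom 2), and their median was -0.82. Srebf2, the factor best known for sterol genes, had 97.7, 78.1 and 60.8 CPM in wild types and 14.7, 47.4 and 23.0 CPM in knockouts (log2 -1.47, SE 0.37, edgeR adjusted p = 0.0507; DESeq2 0.00251). Srebf1, best known for fatty acid genes, had 93.9, 71.1 and 58.9 CPM in wild types and 28.3, 45.9 and 28.9 CPM in knockouts (-1.09, SE 0.28, adjusted p = 0.0511; DESeq2 0.00396). Both were without overlap and lay just outside the threshold. Exons of Srebf1 overlap Rai1 and those of Tm7sf2 overlap Vps51, and reads there cannot be told apart without strand. Scap, the escort, had 41.1, 28.1 and 20.1 CPM in wild types and 11.5, 27.1 and 9.90 CPM in knockouts, with knockout replicate 3 inside the wild-type range (-0.86, SE 0.42, adjusted p = 0.253). Insig1, a retention protein gene that is itself an SREBP target, had 304, 375 and 388 CPM in wild types and 104, 239 and 265 CPM in knockouts (-0.78, SE 0.29, adjusted p = 0.139). Its paralogue Insig2, which is 62.7% identical in protein sequence, was at 13.4, 29.7 and 25.8 CPM against 23.3, 13.4 and 33.9 CPM (0.10, SE 0.43). Stard4, a sterol transfer protein gene, had 0.54 (SE 0.32).

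Of the 7 fatty acid genes, 2 fell, 0 rose and 5 did not pass (median -1.11). Elovl6, which elongates saturated fatty acids (chromosome 3, 129532355 to 129638495), had 877, 696 and 751 CPM in wild types and 282, 462 and 311 CPM in knockouts, without overlap. Its printed promoter stretch is the one without a motif. It fell by 1.11 on the log2 scale (SE 0.19, edgeR adjusted p = 0.0188). Scd1, a stearoyl-CoA desaturase gene (chromosome 19, 44394455 to 44407879), had 776, 493 and 607 CPM in wild types and 112, 337 and 181 CPM in knockouts. It also had no overlap and fell by 1.57 (SE 0.32, adjusted p = 0.0266). Its neighbour Scd2, with 86.3% identical residues, had 1397, 949 and 1357 CPM in wild types and 160, 755 and 356 CPM in knockouts (-1.55, SE 0.40, adjusted p = 0.0546; DESeq2 0.00233). The knockouts of Scd2 spread more widely than those of Scd1 (424 ± 303 against 210 ± 115 CPM, SD, n = 3), while their log2 changes differed by less than either SE. Scd1 and Scd2 share 3.24% and 1.8% of their windows with other genes.

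Acaca and Fasn, which encode the enzymes that start and build fatty acids, did not pass. Fasn had 0.04 (SE 0.41) and Acaca -0.42 (SE 0.47), and in both knockout replicate 3 (162 and 20.6 CPM) was the highest of the 6 single embryos. The desaturase genes of polyunsaturated fatty acids, Fads1 (-0.53, SE 0.44) and Fads2 (-1.62, SE 1.61), did not pass, and Fads2 was at or below 3.8 CPM in every library. Acaca shares 47.4% of its windows with other annotated genes, mostly a predicted copy.

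**Figure D2:**
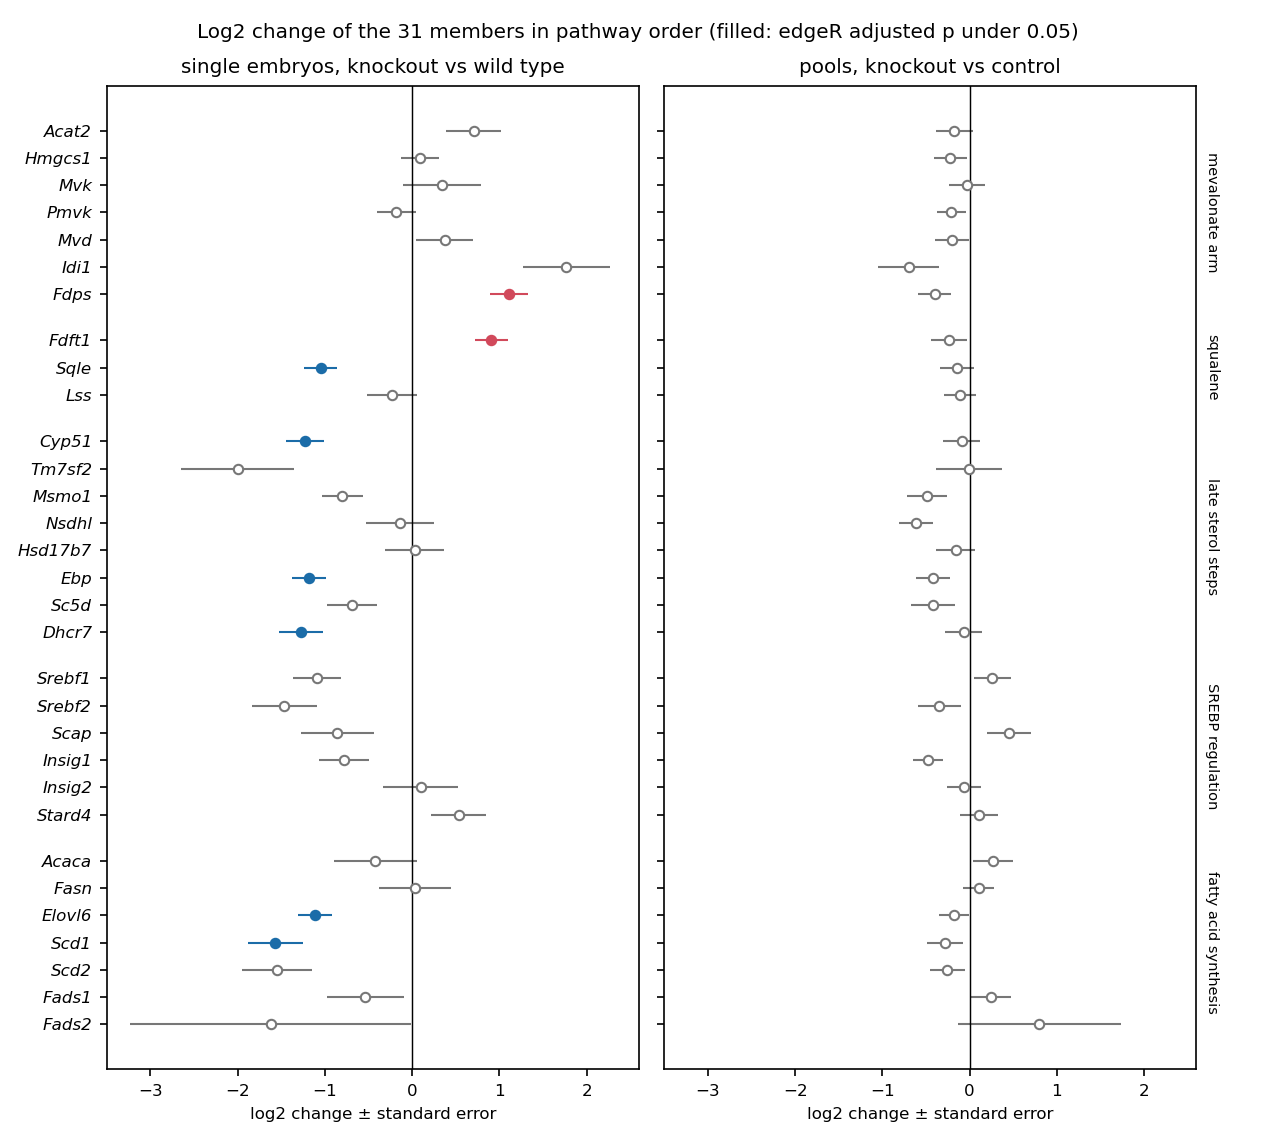
Log2 change of each of the 31 members with its standard error, in pathway order, in single embryos (left) and in pools (right). Filled points passed an edgeR adjusted p of 0.05, which 8 did in single embryos and 0 in pools. Single-embryo changes run from -1.999 (Tm7sf2) to 1.77 (Idi1).

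Each of these 8 calls was lost when wild-type replicate 1 or 3, or knockout replicate 1 or 4, was left out (adjusted p 0.059 to 0.121 over these 4 fits), and each held without wild-type replicate 2 or knockout replicate 3. Over all genes, 41, 1, 66 and 1 passed in the 4 fits, against 605 with every library. With 1 library left out the log2 changes ran from -1.31 to -1.02 for Ebp, from -1.33 to -1.09 for Cyp51, from -1.9995 to -1.29 for Scd1 and from 0.94 to 1.25 for Fdps. Their direction was the same in all 16 alternatives. Over tools, 11 members were lower and 3 higher by DESeq2, where 10% and 9.08% of all genes tested were. Each knockout library lay below each wild type in 13 of 31 members and above in 3, against 15.3% and 12.6% of all genes tested. In all 6 members that fell, the highest knockout value was that of replicate 3, the knockout with the most Jarid2, as in 59.2% of all 444 genes that fell. The part of the Jarid2 level in this was not tested.

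**Figure D3:**
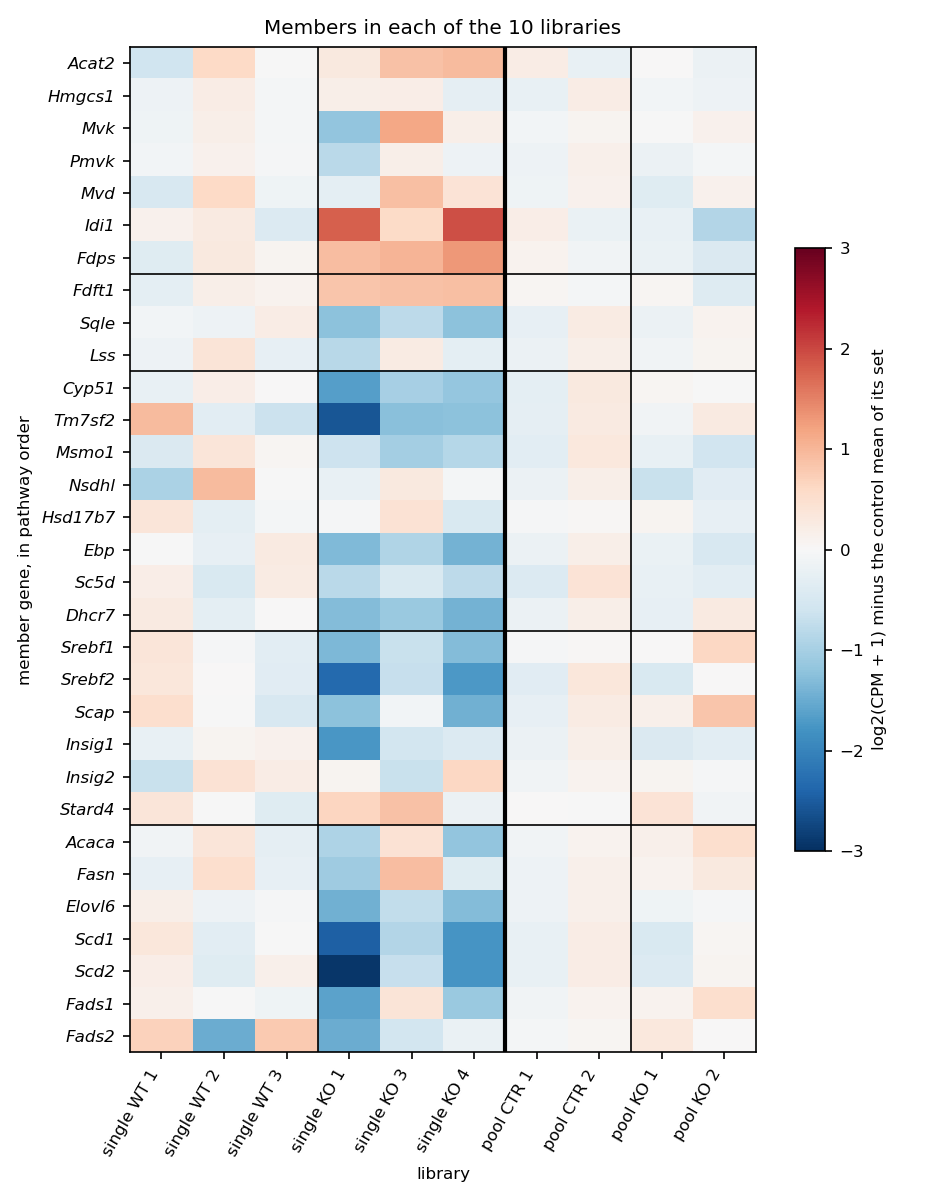
Each member (rows, in pathway order) in each library (columns), as log2(CPM + 1) minus the mean of the control libraries of its set, from blue (lower) to red (higher). Idi1, Fdps and Fdft1 are red in all 3 knockout single embryos, Srebf2, Scd1 and Scd2 are among the deepest blue rows in knockout replicates 1 and 4 (with Tm7sf2 in replicate 1) and are paler in replicate 3, and the pools show less contrast between genotypes.

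The pools repeat the comparison with more embryos and deeper libraries. By edgeR 0 of 31 members passed, as did 0.0% of all 16259 genes tested, with 2 members lower and 0 higher at an unadjusted p under 0.05 (2.34% and 4.26% of all genes, 6.6% in either direction) and 0 called by DESeq2 (0.417% of all genes). Of the log2 changes, 24 of 31 were below 0, as were 48.7% of those of all genes. All 7 genes of the mevalonate arm, all 3 around squalene and all 8 from lanosterol on were among these 24, and the median was -0.17 against 0.01 for all genes. Which control pool was used decided this median: it was 0.01 without control pool 2 and -0.30 without control pool 1. The groups did not overlap in 5 members with lower knockouts (11.1% of all genes) and in 2 with higher ones (24.3%).

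Nsdhl had 32.3 and 41.2 CPM in control pools and 22.5 and 28.6 CPM in knockout pools (log2 -0.62, SE 0.20, unadjusted p = 0.00996, edgeR adjusted p = 0.613). Insig1 had 96.4 and 122 CPM against 79.9 and 86.4 CPM (-0.48, SE 0.17, unadjusted p = 0.0194, adjusted p = 0.672). These 2 genes had no overlap between pools, and neither was among the calls in single embryos. Ebp had 414 and 522 CPM in control pools and 406 and 332 CPM in knockout pools (-0.42, SE 0.19). Fdps had 454 and 398 CPM against 370 and 314 CPM (-0.40, SE 0.19), and Idi1 8.25 and 6.07 CPM against 5.90 and 3.39 CPM (-0.70, SE 0.35). Both thus had log2 changes below 0 in pools and above 0 in single embryos, and Idi1 passed in pools when knockout pool 1 was left out (adjusted p = 0.038 by edgeR). In that fit the lone knockout pool is assumed to vary like the control pools, and 379 of 17188 genes passed (2.21%). The remaining members called in single embryos ranged in pools from -0.28 (Scd1, SE 0.20) to -0.07 (Dhcr7, SE 0.21), with Sqle at -0.14 (SE 0.19) and Cyp51 at -0.09 (SE 0.21). Fdft1, which rose in single embryos, was among them at -0.23 (SE 0.21). The SREBP factors were at 0.26 (Srebf1, SE 0.21) and -0.35 (Srebf2, SE 0.25), Scap at 0.45 (SE 0.26) and Insig2 at -0.06 (SE 0.20).

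Whether the knockout effect itself differed between single embryos and pools was fitted over all 10 libraries. By edgeR 0 members passed (0.0063% of all 15878 genes did, 1 gene), while 7 were lower and 3 higher in single embryos than in pools at an unadjusted p under 0.05 (6.55% and 8.1% of all genes), and 19 of 31 differences were below 0 (52.1% of all). The largest gaps were those of Idi1 (2.49, SE 0.72) and Fdps (1.53, SE 0.31) upwards and of Srebf1 (-1.32, SE 0.39), Scd1 (-1.25, SE 0.48), Dhcr7 (-1.19, SE 0.36) and Cyp51 (-1.11, SE 0.34) downwards, among members at that level. DESeq2 called Fdps, Fdft1, Cyp51, Dhcr7 and Srebf1 (adjusted p 0.0043, 0.0245, 0.0462, 0.0377 and 0.0374), 3 lower and 2 higher, where it called 3.06% and 2.6% of all genes (5.65% in either direction). Sets differ in the number of embryos, in what is known of sex, in depth and in some morula markers, and these cannot be told apart here. Sox2 was at 57.38 to 71.02 CPM in wild-type single embryos and at 13.28 and 19.89 CPM in control pools. Krt18 was at 929 to 1016 CPM against 397 and 577 CPM, whereas Nanog overlapped (231 to 364 CPM against 262 and 296 CPM).

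Levels in CPM can be set side by side over the groups of both sets, as a description. In 18 of 31 members every wild-type single embryo was above all 4 pools (21.1% of all genes), and the 6 members that fell are among them. Those 6 were called from the same wild-type libraries, so their place above the pools is no separate support for the calls. Every knockout single embryo was above all 4 pools in 5 members (10.9% of all genes). Scd2, for example, was at 1234 ± 248 CPM in wild-type and 424 ± 303 CPM in knockout single embryos (SD, n = 3) beside 333 ± 72.9 CPM in control pools and 297 ± 69.7 CPM in knockout pools (SD, n = 2). Ebp was the member with the highest level per kilobase of exon in both control groups, at 529 CPM per kilobase in single embryos and 203 in pools. No test was made between single embryos and pools of a genotype.

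Proteins of the pathway divide by whether they sit in a membrane, a property that did not enter the choice of members. A hydrophobic segment was called where any 19 residues of the longest GENCODE translation had a mean Kyte-Doolittle hydropathy of at least 1.6. By this rule 23 members have one and 8 do not. Mvk lies exactly at the limit, and Fasn and Acaca, known as soluble enzymes, pass it. Lss, of the membrane-bound steps, falls short of it at 1.542, so the rule only approximates a place in the membrane. In single embryos 6 of the 23 fell and 1, Fdft1, rose, while of the 8 others 0 fell and 1, Fdps, rose. Over all genes tested, 9.93% of those with a segment fell and 0.366% rose, and of those without one 0.675% fell and 1.76% rose. The medians were -0.86 for members and -0.50 for all genes with a segment, and 0.46 and 0.14 without one. The 6 members that fell all have a segment, and Fdft1 is the called member with a segment that rose. In pools the medians were -0.14 for members with a segment and -0.21 for those without one, against 0.01 and -0.01 for all genes of these classes. How far this division accounts for the members' changes was not tested.

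**Figure D4:**
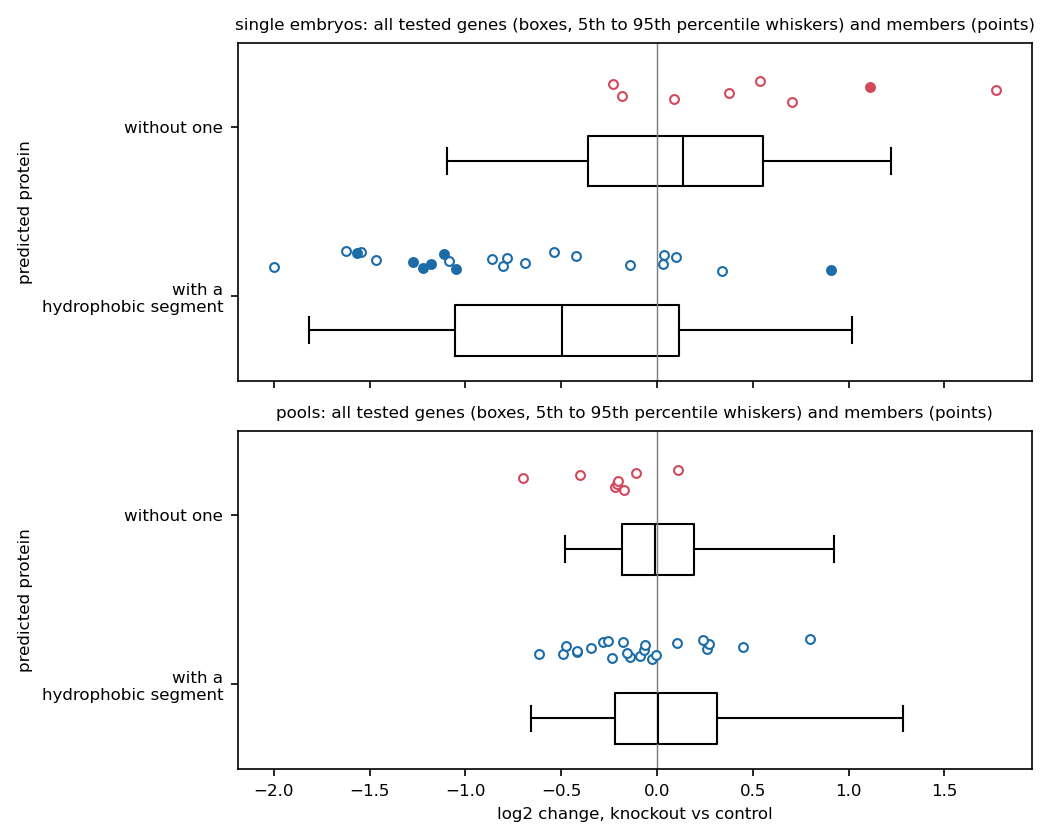
Log2 changes in single embryos (top) and pools (bottom) of all tested genes, as boxes with whiskers from the 5th to the 95th percentile, and of the members, as points (filled where the adjusted p passed 0.05), divided by a predicted hydrophobic segment. In single embryos the box of genes with a segment is centred at -0.50 and that of genes without one at 0.14, and the 6 members that fell lie in the former.

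Other genes of lipid metabolism, in lists chosen by function, were tested in the same fits. Their counts stand beside 3.21% of all genes tested and 9.93% of those with a hydrophobic segment that fell in single embryos. Of 25 tested genes of fatty acid synthesis, elongation, desaturation and activation outside the members, 6 fell and 0 rose (median -0.17), and all 6 have a segment, as do 20 of the 25. They include Elovl5 (-1.31, SE 0.18, edgeR adjusted p = 0.012) and Elovl7 (-1.41, SE 0.24, 0.018), which elongate long-chain fatty acids, the acyl-CoA synthetase gene Acsl3 (-1.17, SE 0.22, 0.0229) and Tecr (-1.19, SE 0.23, 0.0232), of the last step of each elongation cycle. Among 20 glycerolipid and phospholipid synthesis genes 6 fell and 0 rose (median -0.79), 5 of these 6 with a segment (14 of the 20 have one). Among them are the acyltransferase genes Lpcat1 (-1.82, SE 0.31), Dgat1 (-1.43, SE 0.25) and Lpcat3 (-1.11, SE 0.23) and the choline kinase gene Chka (-1.22, SE 0.25). Chka has no hydrophobic segment and had a log2 change of 0.71 (SE 0.17, unadjusted p = 0.00148, adjusted p = 0.399) in pools.

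Sterol uptake, storage and efflux had 3 falls and 0 rises in 13 tested genes (median -0.15), of which 8, the 3 that fell included, have a segment. These were Soat1, which esterifies cholesterol for storage (-1.63, SE 0.31), the lysosomal sterol carrier gene Npc2 (-0.87, SE 0.17) and the sterol transfer gene Stard3 (-1.26, SE 0.29). Of 8 other sterol and isoprenoid genes 1 fell, Lbr, and 0 rose (median 0.27). Of 12 genes of SREBP proteolysis and sterol-regulated degradation 0 passed (4 at an unadjusted p under 0.05, 2 by DESeq2; median -0.55), with the protease gene Mbtps1 at -0.88 (SE 0.24, edgeR adjusted p = 0.0632). Fatty acid oxidation, the route that breaks fatty acids down, had 0 calls in 16 tested genes by edgeR. At an unadjusted p under 0.05, 5 were higher (10.4% of all genes), and 3 were by DESeq2 (9.08%). The log2 changes of this list were above 0 in 15 of 16 (median 0.43), where 48.3% of those of all genes were. Of the 16, 13 have no hydrophobic segment, a class with 57.6% above 0 and a median of 0.14. The smallest p was that of the electron transfer flavoprotein gene Etfa (0.71, SE 0.21, adjusted p = 0.0829). In pools 14 of the 16 were below 0 (median -0.18). By edgeR 0 genes of these 6 lists passed in pools, nor did any by DESeq2. An unadjusted p under 0.05 was found there for 5 of 27 fatty acid, 6 of 20 glycerolipid and 1 of 17 uptake genes. Over all genes tested in pools 6.6% had one. With wild-type replicate 3 or knockout replicate 4 left out, 0 genes of these lists passed in single embryos, and 1 sterol gene and 1 fatty acid gene did without wild-type replicate 1 and likewise without knockout replicate 1.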

How the data were processed

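Polyadenylated RNA of 10 libraries was measured, per the labels' protocols by SMART-Seq v4 amplification, Nextera XT libraries and 75-base reads from one end. The table deposited by the authors gives whole-number counts per gene. The submitters' processing notes name RSEM 1.3.1, STAR 2.7.6a and fastp 0.21.0, with mm10 as the build. They do not name the annotation, the strand setting or the handling of reads with several matches, and reads of overlapping genes or near-identical copies can be misassigned. Reads carry no molecular identifiers.

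The main test was edgeR 4.0.16 under R 4.3.3 (filterByExpr, TMM, quasi-likelihood F test, Benjamini-Hochberg adjustment over all genes tested, 5%), each set by itself, and over all 10 libraries for the difference between sets. Log2 changes carry a prior count of 0.125, a standard error is the log2 change divided by the root of F, and p-values are two-sided. All 31 members passed the filter in the fits of both sets and of their difference. Nothing in the labels ties the pools to separate litters, and the spread between them may be technical. DESeq2 1.42.0 and limma 3.58.1 (voom) were alternatives. The count test was tested on simulated data with 100 genes changed 2-fold and 100 changed 4-fold. It recovered 10% and 44% of these in single embryos, 27% and 62% in pools, and 0% and 14% for the difference between sets. A change that did not pass may thus still be present.

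Members and lists were chosen with earlier results of these data known. Per-library values are printed for members past 5% in a fit, the SREBP regulators, members that DESeq2 called and, in pools, those at an unadjusted p under 0.05. From other lists the text names at most 4 called genes, those with the smallest p, or the 1 with the smallest p where none was called; Lbr, Ctsb and Acat3 are named for their tie to a member. Positions, exon lengths and proteins are from GENCODE M21 (GRCm38), translated from its transcripts since RefSeq proteins were not used here.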

Additional observations from a re-analysis of the deposited data

How the results depend on the processing

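With 3 embryos or 2 pools a group, members such as Srebf1 and Srebf2 lay on either side of the threshold with the tool. In single embryos, members lower numbered 11 by DESeq2 and 12 with no filter on low counts, and 0 to 10 with 1 library left out; members higher numbered 0 to 3 with 1 library left out. The 8 calls kept their direction in all 16 alternatives. Members lower in pools numbered 0 to 1 with 1 pool left out, and the members' median there ran from -0.30 to 0.0093. The difference between sets had 3 members lower and 2 higher by DESeq2, and 2 lower and 3 higher with no filter. The cause was not tested in any of these.

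Over all genes, calls in single embryos (605) numbered 2006 by DESeq2, 1715 with no filter, 1667 with all 10 libraries in one fit and 1 to 1316 with 1 library left out. Higher against lower calls split 161 to 444, but 301 to 423 with upper-quartile factors and 954 to 1052 by DESeq2. In pools (0) they numbered 61 by DESeq2, 170 with no filter and 25 to 379 with 1 pool left out, and for the difference (1) 420 by DESeq2 and 548 with no filter. Library totals moved the median of all genes in the difference from -0.05 to -0.21.

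In single embryos no sign turned among the 8 called members. With limma-voom Nsdhl was at 0.026 and Fasn at -0.11 in single embryos. With library totals Hsd17b7 was at -0.0022 in single embryos, and Tm7sf2, Dhcr7 and Insig2 at 0.084, 0.029 and 0.018 in pools. Tm7sf2 in pools was at 0.044 with upper-quartile factors, 0.015 when genes under a mean of 1 CPM were dropped and 0.0003 with all libraries in one fit. With 1 library left out, single-embryo values ran from -0.031 to 0.22 for Hmgcs1, -0.28 to 0.74 for Mvk, -0.36 to 0.015 for Pmvk, -0.50 to 0.43 for Nsdhl, -0.16 to 0.22 for Hsd17b7, -0.26 to 0.41 for Insig2 and -0.63 to 0.37 for Fasn. In pools they ran from -0.55 to 0.027 for Fdft1, -0.36 to 0.10 for Sqle, -0.34 to 0.21 for Cyp51, -0.30 to 0.36 for Tm7sf2, -0.28 to 0.11 for Dhcr7, -0.19 to 0.049 for Insig2, -0.017 to 0.49 for Srebf1 and -0.63 to 0.0093 for Srebf2. In the difference they ran from -0.53 to 0.016 for Insig1 and -0.15 to 0.49 for Insig2.

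Same-numbered libraries did not deviate together in single embryos (correlations -0.00055 and -0.061), and pools have only 2 pairs (0.114). With the replicate number as a block, 2 members were lower (Scd1, Scd2) and 0 higher in single embryos, where replicates 1 and 3 occur in both groups and all genes called numbered 187, against 39 in pools. In that block fit Nsdhl was at 0.52 and Insig2 at -0.059 in single embryos and Tm7sf2 at 0.018 in pools.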
